A study of Mus musculus with 2 samples.

Results

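The genes described here encode the mouse receptors that bind the constant (Fc) part of immunoglobulin G (IgG), with the chain through which the activating receptors signal: Fcgr1, Fcgr2b, Fcgr3, Fcgr4, Fcer1g and Fcgrt. They were chosen by symbol, and all 6 were found among the 55536 annotated genes of the deposited tables. The data are ribosomal RNA-depleted total RNA-seq of nuclear RNA, named nucleoplasmic in the sample description, from bone marrow-derived macrophages of strain C57BL/6J. These are primary phagocytes grown from marrow; age and sex were not collected. Every library came from cells given 100 ng/ml Lipid A, the TLR4-binding part of lipopolysaccharide, for 12 hours, kept without it for 12 hours, and given 100 ng/ml again for 20 minutes. The design held 1 group of 2 libraries, labelled biological replicates 1 and 2, with the same donor label and no untreated or cytoplasmic sample, so nothing below is a response to Lipid A or a property of the nucleus. Replicate 1 was made from 1 µg of RNA and replicate 2 from 500 ng, so input and replicate cannot be told apart. The libraries cannot be tested against each other, 1 being all there is on either side, and the spread between them may be technical.

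As background, activating Fc gamma receptors bind IgG-coated particles and signal through immunoreceptor tyrosine-based activation motifs (ITAM), which in mice lie in the shared chain encoded by Fcer1g; Src-family kinases phosphorylate them and Syk docks there. Fcgr2b is the inhibitory receptor: its own tail carries an immunoreceptor tyrosine-based inhibitory motif (ITIM) that recruits the phosphatase SHIP1 (Inpp5d). Fcgrt, the neonatal Fc receptor, pairs with beta-2-microglobulin and recycles IgG inside the cell. On a macrophage, the balance of activating to inhibitory receptors is known to set the threshold for phagocytosis and cytokine release.

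The coding sequences of the opposing motifs, from GENCODE M21 transcripts on mm10, are shown first because they define the contrast between the activating and the inhibitory side. Capitals mark the codons of the ITIM in Fcgr2b-202 (chr1:170961050-170961204, minus strand, exons 6 and 7, spliced) and the 2 tyrosine boxes of the ITAM in Fcer1g-201 (chr1:171229868-171231001, minus strand, exons 3, 4 and 5, spliced), 5′ to 3′.
Fcgr2b ITIM: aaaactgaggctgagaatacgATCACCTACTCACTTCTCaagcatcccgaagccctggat
Fcer1g ITAM: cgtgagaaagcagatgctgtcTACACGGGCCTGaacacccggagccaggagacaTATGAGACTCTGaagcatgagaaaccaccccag
Translated by script, the ITAM pattern occurred in Fcer1g and in none of the other 5 main coding transcripts. The shorter ITIM pattern also matched in Fcgr1, Fcgr4, Fcer1g and Fcgrt, so a match of that pattern did not single out Fcgr2b. The matches in Fcgr1 and Fcgrt lay outside the stretch at the protein's end that holds the tail. The match in Fcgr4 lay inside that stretch, though not necessarily in the tail. The stretch is longer than the whole Fcer1g protein of 86 residues, so the match there says nothing about position.

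Fcgr2b also comes in 2 forms that differ in the tail. The long form, Fcgr2b-201, holds an exon of 141 bases (47 codons, chr1:170963325-170963465, mm10, minus strand, exon 6, coding) that the short form, Fcgr2b-202, skips. As background, the long form is known from B cells, where the added stretch keeps the receptor at the surface, and the short form from macrophages, where it can be taken up by endocytosis. The exon is shown in capitals between 15 bases of its neighbours, and below it the junction of the short form, with the end of the upstream exon in capitals.
Fcgr2b long form: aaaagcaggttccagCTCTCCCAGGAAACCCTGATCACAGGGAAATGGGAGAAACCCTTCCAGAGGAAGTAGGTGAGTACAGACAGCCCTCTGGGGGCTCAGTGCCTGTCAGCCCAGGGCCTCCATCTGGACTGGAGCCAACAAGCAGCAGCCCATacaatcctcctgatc
Fcgr2b short form: AAAAGCAGGTTCCAGacaatcctcctgatc

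Fcgr2b and Fcgr3, an inhibitory and an activating receptor, are the closest pair in sequence. Over 730 aligned coding bases 87.8% were identical, and the longest run shared without a mismatch was 129 bases, against 9 to 14 bases for the other 5 pairs of Fc gamma receptor genes. Identity in those pairs was 64.7% to 68.1%. The shared run lies in coding exons 3 and 4 of both genes (mm10, minus strand; chr1:170966674-170968081 in Fcgr2b and chr1:171054167-171057792 in Fcgr3, introns included) and is shown because reads that fall inside it cannot be told apart by their letters.
Fcgr2b and Fcgr3 shared run: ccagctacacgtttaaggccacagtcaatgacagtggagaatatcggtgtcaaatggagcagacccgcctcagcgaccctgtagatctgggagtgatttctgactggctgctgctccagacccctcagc
The deposited posterior standard deviation, the authors' measure of how far a count could shift between genes or transcripts, was 0.73 reads in replicate 1 and 1.16 in replicate 2 for Fcgr2b and the same for Fcgr3, and 0 for the other 4 genes. Both values are small beside the gene counts of this pair, 749 to 9420 reads.

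All 6 genes were detected at 10 TPM (a level per transcript length, scaled to the same total in each library) or more in both libraries, where 33.6% of the 12952 genes with a mean of at least 1 TPM reached that level. In a further table that the authors derived directly from the reads (read-based below), Fcgr3 (6.66 TPM) and Fcgrt (4.13 TPM) were under 10 TPM in replicate 1. Each of the 6 genes read lower there in TPM but higher in counts. Fcgr2b, for example, held 11583 and 12288 estimated counts there against 9420 and 7709. The order by mean TPM was Fcer1g, Fcgr2b, Fcgr1, Fcgr4, Fcgr3 and Fcgrt. Of the 5 neighbouring pairs in that order, only Fcgr4 and Fcgr3 had overlapping library values, so those 2 did not differ beyond their spread. These levels are of whole cultures, in which fewer cells with a transcript and less RNA per cell cannot be told apart.

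Among the activating receptors, Fcgr1 (CD64), the high-affinity IgG receptor, was highest. It read 140 TPM in replicate 1 and 82.7 in replicate 2, a mean of 111 ± 40.5 (SD, n = 2), from 9295 and 3999 expected counts. As a ratio its libraries were the furthest apart of the 6 genes, while in TPM those of Fcer1g were. Fcgr4 (CD16-2), which binds IgG2a and IgG2b, read 43.4 and 31.0 TPM, a mean of 37.2 ± 8.78 (SD, n = 2), from 1356 and 659 expected counts, and was also lower in replicate 2. Fcgr3 (CD16), a low-affinity receptor for immune complexes, read 26.8 and 32.7 TPM, a mean of 29.7 ± 4.16 (SD, n = 2), from 899 and 749 expected counts. Fcgr4 was thus above Fcgr3 in replicate 1 and below it in replicate 2 when all transcripts of the alignment-based table were counted. In the read-based table Fcgr4 was above Fcgr3 in replicate 2 as well, at 18.6 against 18.5 TPM, and so it was in both libraries over protein-coding transcripts alone.

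The inhibitory receptor Fcgr2b (CD32) was the highest of the 4 ligand-binding Fc gamma receptors in each library when all transcripts were counted. It read 216 TPM in replicate 1 and 223 in replicate 2, a mean of 219 ± 5.42 (SD, n = 2), from 9420 and 7709 expected counts. This placed it at rank 183, above 98.6% of the genes with a mean of at least 1 TPM. Its level was 1.54 and 2.70 times that of Fcgr1 in the 2 libraries. This order depended on the transcripts counted: over protein-coding transcripts alone Fcgr1 was 1.30 and 0.869 times the level of Fcgr2b, and in the same comparison within the read-based table, chosen after seeing the data, 1.34 and 1.01 times. Fcgr1 then led in replicate 1, or in both libraries.

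Fcer1g, the signalling chain, was the highest of the 6, at 416 and 516 TPM, a mean of 466 ± 70.2 (SD, n = 2), from 5674 and 4782 expected counts, rank 95. Its level in TPM was 1.98 and 3.52 times the summed level of the 3 activating receptors that use it. In expected counts not divided by length it was 0.491 and 0.884 times their sum, so this excess depends on the division by length. Fcgrt, at the other end, read 15.3 and 16.5 TPM, a mean of 15.9 ± 0.799 (SD, n = 2), from 667 and 503 expected counts. Its partner B2m read 564 and 1047 TPM, a mean of 805 ± 342 (SD, n = 2), with no overlap between the levels of the pair.

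**Figure D1:**
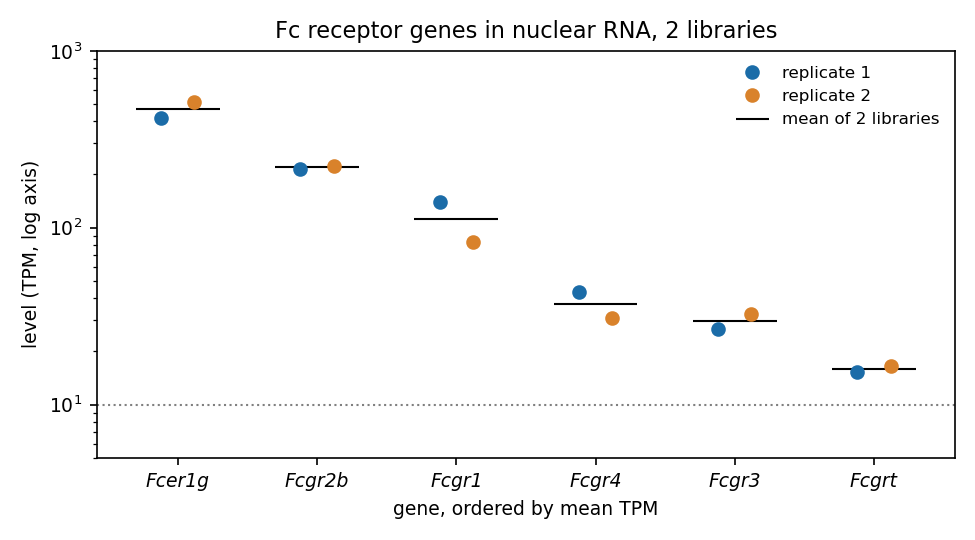
Level of each Fc receptor gene in TPM (log axis) in replicate 1 and replicate 2, with the mean of the 2 libraries as a line and 10 TPM dotted. Fcer1g sits highest at 416 and 516 TPM, Fcgr2b lies above every other ligand-binding receptor with all transcripts counted (over protein-coding transcripts alone Fcgr1 was 1.30 times Fcgr2b in replicate 1), and the points of Fcgr4 and Fcgr3 overlap.

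Set against each other, the activating receptors together did not exceed the inhibitory one in TPM. Fcgr1, Fcgr3 and Fcgr4 summed to 210.2 TPM in replicate 1 and 146 in replicate 2. Divided by Fcgr2b, this gave a ratio of 0.975 and 0.655, a mean of 0.815 ± 0.226 (SD, n = 2). The ratio was near 1 in the first library and below it in the other. Fcgr1 made up 66.6% and 56.5% of the activating sum, Fcgr4 20.7% and 21.2%, and Fcgr3 12.7% and 22.3%.

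The side of 1 on which this ratio fell depended on what was counted. With expected counts not divided by length it was 1.23 in replicate 1 and 0.701 in replicate 2, and in the read-based table it was 1.09 and 0.675. In both of these measures replicate 1 lay above 1 and replicate 2 below. With the TPM of protein-coding transcripts alone it was 1.95 and 1.49, a mean of 1.72 ± 0.326 (SD, n = 2), above 1 in each library. The same restriction in the read-based table, a combination chosen after seeing the data, gave 1.96 and 1.55. This restriction cannot lower Fcgr4, which has 1 annotated transcript. In the alignment-based table it left 92.1% and 99.5% of Fcgr1 but 46.0% and 42.4% of Fcgr2b. The rise of the ratio therefore depends on how each gene is annotated and is not a measure of the RNA alone.

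The split of the counts among the 4 Fc gamma receptor genes is given with its counting error. Fcgr2b held 44.9% of their expected counts in replicate 1 (44.2% to 45.6%, the 95% interval by Wilson's method) and 58.8% in the other library (57.9% to 59.6%). Fcgr1 held 44.3% (43.7% to 45.0%) and 30.5% (29.7% to 31.3%). These intervals cover counting error within a library and not the spread between libraries, and the shares are of counts, not of levels per length.

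**Figure D2:**
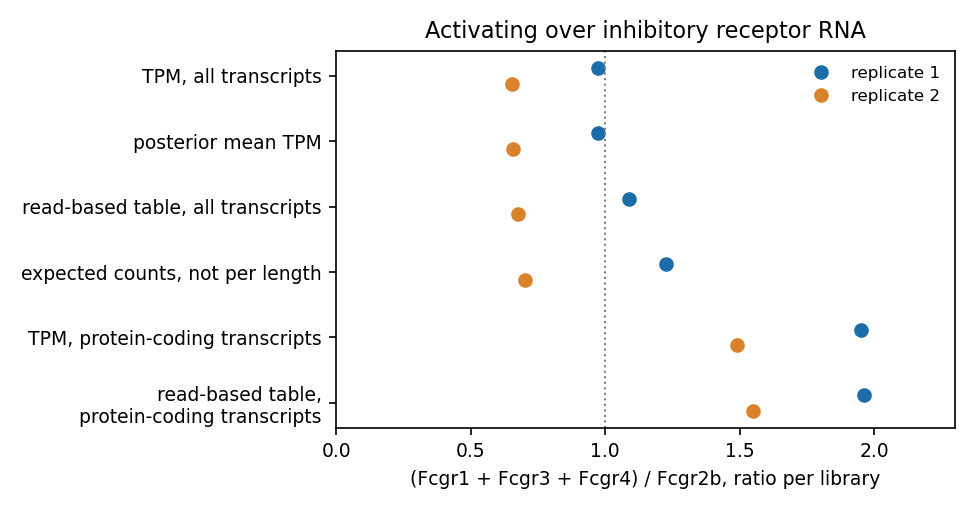
Summed activating receptors (Fcgr1, Fcgr3, Fcgr4) divided by Fcgr2b in each library (points), under 6 measures, with a ratio of 1 dotted. Replicate 2 lies below replicate 1 under every measure shown, and both libraries lie above 1 only where protein-coding transcripts alone are counted.

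In the alignment-based table Fcgr2b differed from the other 5 genes in how its TPM was divided among annotated transcripts. Across the 6 genes the annotation holds 23 transcripts, 15 of them protein-coding. In Fcgr2b, protein-coding transcripts took 46.0% of the gene's TPM in replicate 1 and 42.4% in replicate 2. The shares were 92.1% and 99.5% for Fcgr1, 79.3% and 85.4% for Fcgr3, 97.9% and 99.0% for Fcer1g, and 94.1% and 88.8% for Fcgrt, while Fcgr4 has 1 annotated transcript. The Fcgr2b values lay below those of the other genes in both libraries without overlap. These shares depend on which transcripts are annotated. Transcripts of other types hold 1369, 397 and 214 bases outside the coding transcripts in Fcgr2b. They hold 152 and 168 such bases in Fcgrt, 126 in Fcer1g, 107 in Fcgr3 and 0 in Fcgr1, and Fcgr4 can only read 100%. A difference in the RNA itself was therefore not shown.

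A low share is not rare among genes in these libraries. Over 9276 protein-coding genes with at least 2 transcripts and a mean of at least 1 TPM the median share was 74.7% and 72.7%, and 17% of them, like Fcgr2b, were under 50% in both libraries. That threshold was chosen after the shares were seen. In the read-based table Fcgr1 stood at 74.3% and 99.1%. Fcgr2b stood there at 43.3% and 39.4%, close to its values in the alignment-based table. But Fcgrt stood at 68.9% and 42.9% and Fcgr3 at 67.9% and 55.7%, so in replicate 2 Fcgr2b and Fcgrt were near each other. Overlapping antisense genes lie over these 2 loci, Gm38204 over Fcgr2b and Gm45669 over Fcgrt. Gm38204 held 1 and 3 expected counts and Gm45669 0 and 0, or 91 and 181, and 2 and 11, in the read-based table. The strand setting was not given in the sources used here, and any part of these genes in the shares was not tested.

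**Figure D3:**
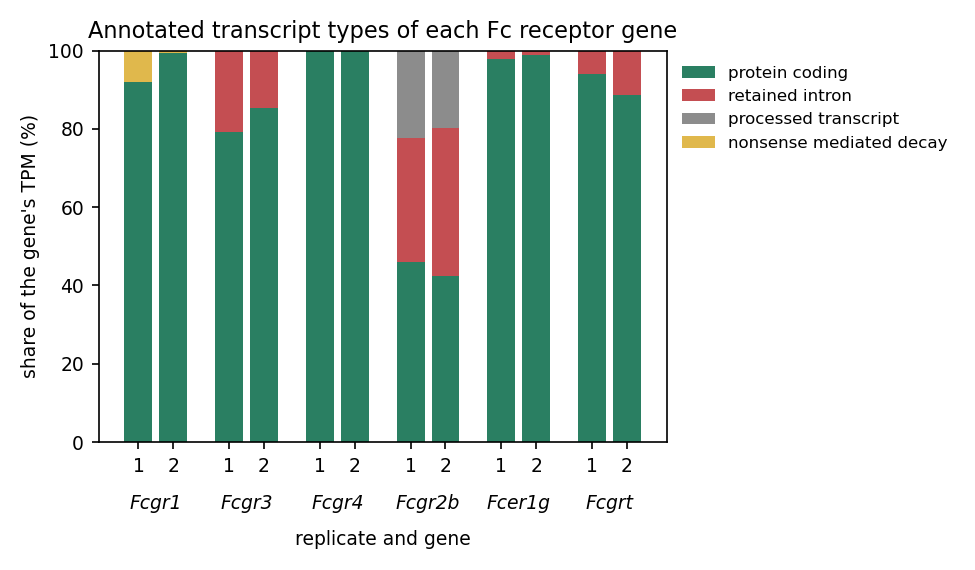
Share of each gene's TPM (percent) taken by each annotated transcript type, as stacked bars for replicates 1 and 2. Protein-coding transcripts fill 46.0% and 42.4% of the Fcgr2b bars and at least 79.3% of every other bar.

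Within Fcgr2b, 5 transcripts reached 10% of the gene in either library. The processed transcript Fcgr2b-206, 802 bases at the 3′ end of the gene with 397 bases outside every coding transcript, took 22.4% and 19.7%. The retained-intron transcript Fcgr2b-205 took 21.8% and 24.1%, with 1369 bases that run on from the fifth coding exon into the intron before the exon of the long form. Fcgr2b-207, which reads from the second exon into the next intron, took 9.75% and 13.9%. All 3 had similar shares in the 2 libraries, within 5 percentage points.

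The 2 coding forms changed places between libraries in TPM, that is after division by length, but not in counts. The long form Fcgr2b-201 took 13.6% in replicate 1 and 25.0% in replicate 2 (29.4 and 55.9 TPM), and the short form Fcgr2b-202 took 32.3% and 17.4% (69.7 and 38.8 TPM). On this scale the short form was higher in replicate 1 and the long form in replicate 2. The same order of TPM held in the read-based table, at 9.16 against 15.9 TPM in replicate 1 and 36.4 against 16.9 in replicate 2. In expected counts the long form was above the short form in each library, at 2930 against 2604 reads in replicate 1 and 3806 against 989 in replicate 2. The posterior standard deviations of these counts were 37.0 to 51.9 reads, far larger than at gene level, and they cover read assignment and not the spread between libraries.

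The forms cannot be read as inclusion of the exon alone. In the annotation Fcgr2b-201 ends in a last exon of 2484 bases and Fcgr2b-202 in one of 543 bases, so 1941 bases found only in the long form belong to the longer 3′ end. Fcgr2b-202 has 0 bases of its own. Exon inclusion and 3′ end length cannot be told apart in these estimates. The effective length the authors used for the whole gene moved with the mix, from 1460 bases in replicate 1 to 1686 in replicate 2, and before division by length Fcgr2b held 429 and 435 CPM (counts scaled to the library total).

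**Figure D4:**
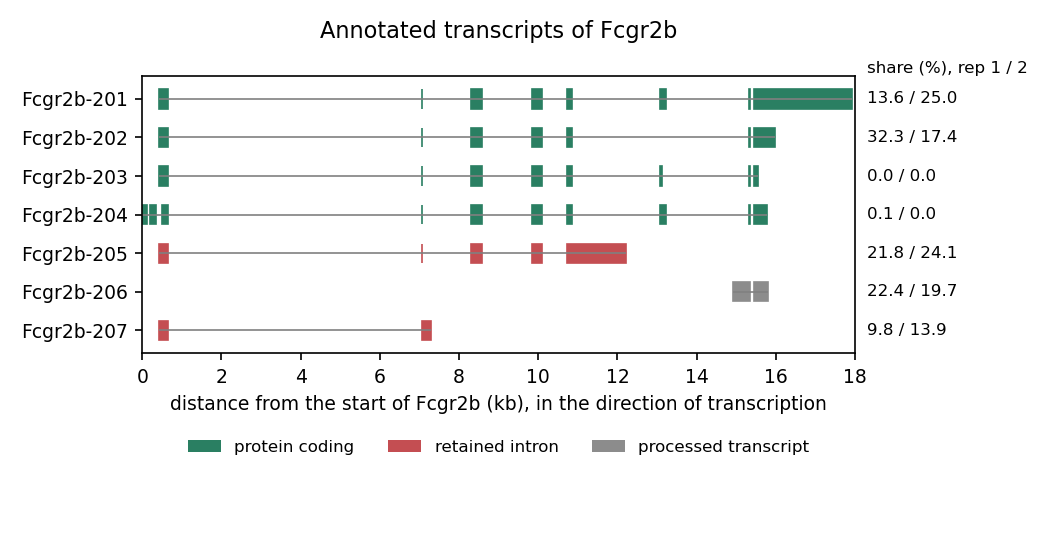
The 7 annotated transcripts of Fcgr2b drawn by distance from the start of the gene (kb), exons as boxes coloured by type, with each transcript's share of the gene's TPM at the right. Fcgr2b-201 and Fcgr2b-202 differ in an internal exon of 141 bases and in the length of the last exon, and their shares of TPM change places between the libraries.

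In the alignment-based table each of the other genes had a leading coding transcript, which in the read-based table did not hold for Fcgrt. The coding transcript of Fcgr1 took 92.1% and 99.5%, and the remaining 7.93% and 0.46% went to its other transcript, annotated as a target of nonsense-mediated decay, the pathway that degrades messages with early stop codons. The main coding transcript of Fcgr3 took 69.8% and 77.2%, and its retained-intron transcript took 20.7% and 14.6%. The posterior standard deviations of this pair, 49.9 to 55.8 reads on 105 to 634 counts, make their split imprecise. Fcer1g-201 took 95.9% and 98.0%. In Fcgrt, Fcgrt-201 took 71.8% and 82.1% and Fcgrt-203 took 21.6% and 6.66%. The retained-intron transcript Fcgrt-206 took 1.20% and 11.3%, with 6.24 and 42.6 counts. The posterior standard deviations were 6.6 and 23.15 reads for Fcgrt-206. They were 40.7 and 19.5 reads for Fcgrt-203, on 138 and 31.1 counts, so this split is imprecise as well. In the read-based table Fcgrt-206 led Fcgrt in replicate 2, at 52.7% against 25.2% for Fcgrt-201. In that table and library the main coding transcript of Fcgr3 took 49.7% and its retained-intron transcript 44.3%.

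Between the libraries, Fcgr1 was the 1 member of 6 past 2-fold, 2.06-fold lower in replicate 2 (log2 difference -1.04). This is the ratio of TPM plus 1 after removal of the median shift over all genes, 0.29 on the log2 scale, a measure that understates the fold of low genes. By the same rule 7.29% of the 12952 genes were past 2-fold in either direction, 584 lower and 360 higher in replicate 2. Fcgr4 followed at -0.76, and Fcgr2b, Fcgrt, Fcgr3 and Fcer1g lay at -0.24, -0.19, -0.01 and 0.02. The Fcgr1 call depended on the setting: its difference was short of 2-fold under 4 of the 8 alternatives tried, at -0.90 with a pseudocount of 5, -0.87 with no filter, -0.75 without centring and -0.93 in the read-based table. The sign for Fcgr1 and Fcgr4 was negative under all 8. In the read-based table that sign rests on the centring, which removed a larger median shift, 1.193. Before centring both genes read higher in replicate 2 there, Fcgr1 at 45.4 and 54.6 TPM and Fcgr4 at 11.2 and 18.6 TPM. For the other 4 genes the sign depended on the setting. Without centring Fcgr2b, Fcgrt and Fcgr3 read 0.05, 0.10 and 0.28, and Fcer1g read -0.045 with TMM-scaled counts and -0.03 with a pseudocount of 0.1.

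**Figure D5:**
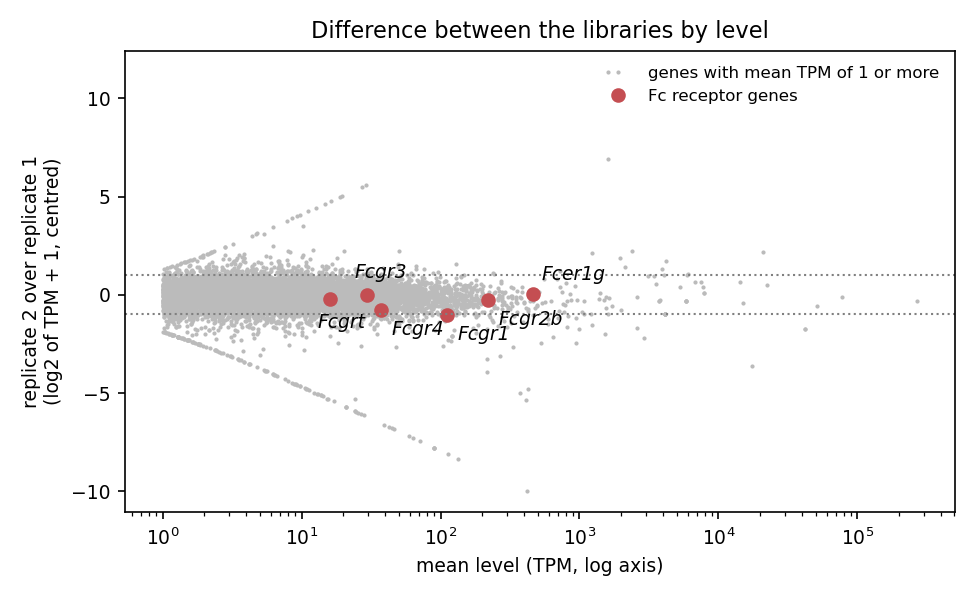
Centred log2 difference of replicate 2 over replicate 1 against mean TPM (log axis) for the 12952 genes with a mean of at least 1 TPM (grey) and the 6 Fc receptor genes (red), with 2-fold lines dotted. Fcgr1 lies just past the lower line at -1.04, Fcgr4 lies inside it at -0.76, and the other 4 lie between -0.24 and 0.02.

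The promoters of Fcgr1 and Fcgr4, the 2 genes furthest apart between libraries, are shown for context. Windows of 250 bases before to 50 after the start came from RefSeq (GRCm38.p6), which held all 6 genes. Both strands were searched for TTCNNNGAA (the GAS element of STAT factors), the ISRE of interferon regulatory factors (GAAA, any 2 bases, GAAA) and GAGGAA (the core bound by PU.1, the macrophage ETS factor). Positions count from the RefSeq start and give the leftmost printed base of each match, in capitals.
Fcgr1 chr3:96294009-96294088, minus strand: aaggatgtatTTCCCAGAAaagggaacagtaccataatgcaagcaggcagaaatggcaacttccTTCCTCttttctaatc
Fcgr4 chr1:171018843-171018919, plus strand: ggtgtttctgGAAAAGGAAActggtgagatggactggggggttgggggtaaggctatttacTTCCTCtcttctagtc
In Fcgr1 TTCNNNGAA lies at -109 and GAGGAA, read on the other strand, at -55. In Fcgr4 the ISRE lies at -73 and GAGGAA, again on the other strand, at -22. Fcgr3 held GAGGAA as well, and the windows of Fcgr2b, Fcer1g and Fcgrt held none of the 3. Of 32851 windows in the table, 8.3% held TTCNNNGAA, 3.44% the ISRE and 28.3% GAGGAA. A match is a run of letters and not evidence of binding.

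Of the 6 genes, 4 lie in 1 stretch of chromosome 1 (mm10): Fcgr2b at chr1:170958617-170976547 on the minus strand, Fcgr4 at chr1:171018920-171029761 on the plus strand, Fcgr3 at chr1:171051174-171064935 on the minus strand and Fcer1g at chr1:171229572-171234365 on the minus strand. The stretch spans 276 kb and holds 11 protein-coding genes. The 7 that are not Fc receptor genes had a median of 0.825 TPM, and 0 of them reached 10 TPM in both libraries. Of all genes with a mean of at least 1 TPM 33.6% did, but not all of the 7 had such a mean. The ends of the stretch were set by Fc receptor genes, and Tomm40l, at 8.37 and 9.78 TPM, was just short of that level. A difference of these neighbours from genes at large was therefore not shown. The highest of these neighbours was Sdhc, a subunit of succinate dehydrogenase, at 9.89 and 10.02 TPM, below each of the 4 Fc receptor genes in both libraries. Fcgr1 lies at chr3:96282909-96293969 and Fcgrt at chr7:45092990-45103851, both on the minus strand.

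The signalling genes downstream were present on both sides. Of 19 genes of activating signalling, 18 reached 10 TPM in both libraries, where 33.6% of all genes compared did. Their median was 36.6 TPM against 6.94 over all genes compared. Syk, the kinase that docks on the phosphorylated ITAM, read 137 and 130 TPM, and the adaptor Lat2 was highest at 136 and 149 TPM. The Src-family kinase Fgr was lowest at 1.77 and 0.34 TPM and the 1 gene of this list past 2-fold, lower in replicate 2. Of 9 genes of inhibitory signalling, 7 reached 10 TPM in both, with a median of 30.6 TPM. Inpp5d, the phosphatase recruited by Fcgr2b, was highest at 68.0 and 83.6 TPM, and the adaptor Dok2 was lowest at 9.56 and 6.75 TPM. Past 2-fold in this list were Ptpn6, the phosphatase SHP-1, at 80.1 and 44.8 TPM, and the adaptor Dok1 at 26.6 and 15.5 TPM, both lower in replicate 2 and both named after their values were seen. Over all genes compared, 7.29% were past 2-fold in either direction.

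Other receptors that share the Fcer1g chain, and other chains of its kind, were counted by the same level. Of all genes with a mean of at least 1 TPM, 33.6% reached 10 TPM in both libraries. That filter was not applied to these lists of 5, which are too short to be set apart from that share. Of 5 other users of Fcer1g, the C-type lectin receptors Clec4e (Mincle), at 107 and 104 TPM, and Clec4d, at 47.3 and 51.2 TPM, reached 10 TPM in both libraries. Clec4n was short of that level at 5.27 and 9.3 TPM. Oscar and Gp6, the collagen receptors of osteoclasts and platelets, were lowest at 0.02 and 0 TPM each. Of 5 other ITAM chains, Tyrobp (DAP12) alone reached that level, at 116 and 91.3 TPM, below Fcer1g in each library, and Cd3e had 0 counts.

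The Fc receptors for other immunoglobulin classes and the Fc receptor-like genes had a median of 0.12 TPM. Of 13 such genes, 4 had a mean of at least 1 TPM, as did 12952 of all 55536 annotated genes. Trim21, a cytosolic IgG receptor, alone reached 10 TPM in both libraries, at 39.4 and 25.1 TPM, where 33.6% of those 12952 genes did. Neither count was shown to be below its share over all genes. Fcer1a, Fcmr, Fcamr and Pigr, receptors for IgE, IgM, IgA and IgM, and polymeric immunoglobulin, had 0 counts in each library, which allows up to 0.137 and 0.169 CPM. Fcer1g RNA was therefore measured without detectable RNA of Fcer1a, the chain that binds IgE on mast cells.

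The labelled cell type was checked by markers of macrophages and of other cells that carry these receptors. All 8 macrophage markers reached 10 TPM in both libraries, among them Adgre1 (F4/80) at 562 and 510 TPM and Lyz2 at 1231 and 1590 TPM. Summed over 6 markers, B cells, the usual source of the long Fcgr2b form, read 0.54 and 0.92 TPM, with Pax5 and Blk at 0 counts. Other B cell genes, outside this list, read above that sum. These were Fcrl1 (1.1 and 1.76 TPM), Fcrl5 (2.27 and 1.94 TPM) and Cd22 (mean 7.155 TPM). They were named after their values were seen, and the cells they come from were not tested. Mast cell and basophil markers (6 genes) summed to 0.50 and 1.06 TPM with 4 at 0, and NK and T cell markers (6 genes) to 0. Neutrophil markers (7 genes) summed to 1.84 and 2.62 TPM with Ly6g, Elane and Retnlg at 0, and dendritic cell markers (5 genes) to 1.30 and 2.11 TPM.

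By closeness of log2 (TPM + 1) over the 2 libraries, the protein-coding gene nearest to Fcgr1 was Irf1 (140 and 84.5 TPM, distance 0.031). Nearest to Fcgr2b was Tpm3, to Fcgr3 Baz2a, to Fcgr4 Rpl34, to Fcer1g Oasl2 and to Fcgrt Cyfip2, at distances of 0.012 to 0.15. With 2 libraries this measures level and little else.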

How the data were processed

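Each of the 2 libraries has alignment-based tables of genes and of transcripts and a read-based table of transcripts, deposited by the authors on mm10 with GENCODE M21, per the deposited text files. Expected counts (estimated reads, not always whole) and TPM, scaled per effective length, are the authors' values per the file headers, as are posterior standard deviations and TPM interval bounds. Isoform percent, the share of a transcript in its gene's TPM, was deposited by the authors. Column names are those of RSEM and kallisto; which aligner and versions were used, and the strand setting, was not given in the sources used here.

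Depth was 21954179 and 17739520 expected counts in genes (30118122 and 31357986 in the read-based table). Entries naming no gene (26248 numeric and 97 spike-in) held 0.581% and 0.434% of counts and were left out. The 6 symbols were matched through the transcript identifiers. Members, lists and tests were chosen with earlier results of these data known. Levels are mean ± SD, and shares of counts have 95% Wilson intervals. Differences are log2 of (TPM + 1), centred on the median of genes with a mean of at least 1 TPM, and called past 2-fold. This procedure was tested on simulated data with 200 changed genes. The simulated libraries differed otherwise by counting error alone, so that test does not cover the spread between the real libraries. A count of 0 allows 3 counts. These limits cover counting error only, since reads are not independent molecules. The named genes were the 6 members, their transcripts at 10% or more, the highest and lowest gene of each list, Syk, Inpp5d, B2m and Tyrobp, and for each member the nearest gene. Alternatives were the read-based table, posterior mean TPM, TPM rescaled after dropping genes under 200 bases and mitochondrial genes, counts not divided by length, protein-coding transcripts alone, other pseudocounts and filters, no centring, TMM-scaled counts and each library alone. TMM factors came from edgeR 4.0.16 in R 4.3.3. Other steps used Python 3.11.15, numpy 2.4.6, pandas 2.3.3, scipy 1.17.1, Biopython 1.88 and matplotlib 3.10.9.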

Additional observations from a re-analysis of the deposited data

How the results depend on the processing

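In the read-based table every mean level was lower: Fcer1g 204 TPM, Fcgr2b 96.9, Fcgr1 49.97, Fcgr4 14.9, Fcgr3 12.6 and Fcgrt 8.35, in the same order as the mean levels reported. Rescaling without mitochondrial genes and genes under 200 bases moved Fcer1g to 577 TPM, Fcgr2b to 271, Fcgr3 to 36.8 and Fcgrt to 19.7, and posterior mean TPM moved Fcgr2b to 211. The mean ratio of activating to inhibitory receptors passed 1 with protein-coding transcripts alone, at 1.72, and at 1.76 in the read-based table, and was 0.655 to 0.975 with each library alone. The Fcgr1 difference was short of 2-fold with a pseudocount of 5 (-0.90), no filter (-0.87), no centring (-0.75) and the read-based table (-0.93), which leaves 0 members past 2-fold under these 4 settings and 1 under the other 4. Genes past 2-fold over the whole table numbered 944 as reported, 1661 with a pseudocount of 0.1, 306 with a pseudocount of 5, 581 with at least 10 counts in each library and 625 in the read-based table. Mean protein-coding shares in the read-based table were 86.7% for Fcgr1, 41.4% for Fcgr2b, 61.8% for Fcgr3, 95.9% for Fcer1g and 55.9% for Fcgrt. The cause of these shifts was not tested. With each library alone, levels were 82.7 to 140 TPM for Fcgr1, 216 to 223 for Fcgr2b, 26.8 to 32.7 for Fcgr3, 31.0 to 43.4 for Fcgr4, 416 to 516 for Fcer1g and 15.3 to 16.5 for Fcgrt. The difference between libraries needs both, so leaving out a replicate gave none. No paired analysis was possible because there was 1 group. The main limits are 2 libraries, input confounded with replicate, transcripts told apart by few bases and an unstated strand setting.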
